A study of Mus musculus with 6 samples.

Results

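In stromal cells sorted by a reporter of p16, 10 genes of sphingomyelin breakdown and of sphingosine-1-phosphate (S1P) signalling were compared across all 6 libraries. The genes were Smpd1, Smpd2, Smpd3, Asah1, Sphk1, Sphk2, Sgpl1, S1pr1, S1pr2 and S1pr3. They are 10 of the 55536 genes in the count files, found by symbol in GENCODE vM21, and all 10 passed the filter on low counts. They were chosen by their place in the pathway and with the p16+ over p16- differences of these same libraries already known, among them the low Smpd3 level. Their differences are therefore given as a description, and how many of them passed a threshold is not evidence for the group.

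The cells came from injured quadriceps of C57Bl/6 mice that carry a tdTomato reporter of p16, the inhibitor of cyclin-dependent kinases encoded by Cdkn2a and a common mark of senescent cells. All were sorted as lacking CD45 and CD31 and carrying CD29. The p16+ group held 3 libraries of tdTomato-positive cells and the p16- group 3 libraries of tdTomato-negative cells. The muscle was resected at 10 weeks of age. Per the labels, defects received 30 mg of polycaprolactone, a decellularized matrix or 50 uL of saline, with harvest after 1 or 6 weeks, and the sources used here do not say which of these applied to each library. A difference between groups therefore cannot be told apart from a difference in filler or time, if the groups differed in these. The labels do not say that libraries came from separate animals, so errors and p-values cover the spread of these 6 libraries and may be technical.

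Sphingomyelinases cut sphingomyelin, a major lipid of animal cell membranes, into ceramide and phosphocholine. Ceramidases turn ceramide into sphingosine, sphingosine kinases phosphorylate sphingosine to S1P, and the lyase encoded by Sgpl1 destroys S1P for good. S1P leaves the cell through transporters and acts on G protein-coupled receptors, which steer the migration, contraction and survival of vascular, immune and connective tissue cells.

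In p16+ cells Smpd3 was 7.34-fold lower than in p16- cells, while the receptor genes S1pr1, S1pr2 and S1pr3 and the kinase gene Sphk1 rose. The 5 other genes, Smpd1, Smpd2, Asah1, Sphk2 and Sgpl1, did not pass the threshold, which was an adjusted p of 0.05 in edgeR's quasi-likelihood fit over all 15903 genes tested. Thus 4 of the 10 genes were called higher and 1 lower, beside 8.69% of all genes tested called higher, 8.04% called lower and 16.7% called in either direction. In 6 of the 10 genes the values of the groups did not overlap, 5 of them with p16+ above, beside 33.1% of all genes tested without overlap in either direction. The median log2 fold change was 0.25 over the 10 genes and -0.01 over all genes tested.

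The p16+ libraries held 35253406 to 37861713 counts each, the p16- libraries 36507067 to 39103909. Levels are given as CPM, the counts scaled to a common library size, and 3 counts equalled 0.0737 to 0.0876 CPM. Cdkn2a had 251, 324 and 265 counts in p16+ libraries, against 98, 70 and 82 in p16- libraries (log2 fold change 1.88, SE 0.22, edgeR adjusted p = 2e-05). The stromal markers were abundant in both groups (4 of 7 rose, 0 fell), with Pdgfra, Col1a1, Col3a1, Dcn, Lum, Thy1 and Itgb1 summing to 116900 to 123000 CPM in p16+ and 70870 to 84670 CPM in p16-. Most of that sum came from Col1a1 (mean 37830 CPM in p16+, 20410 in p16-) and Col3a1 (69170 in p16+, 44920 in p16-). Dcn (7884 CPM in p16+, 8744 in p16-) and Pdgfra (866 in p16+, 1018 in p16-) were lower in p16+ without passing. Among the sorting antigens, Itgb1 (CD29) had 30572 to 33517 counts in p16+, against 28310 to 31200 in p16-. Ptprc (CD45) had 184 to 355 counts in p16+, against 154 to 235 in p16-. Pecam1 (CD31) had 184 to 278 counts in p16+, against 104 to 153 in p16-. On principal components of log2 CPM, p16+ replicates 2 and 3 stood far apart on the second component, which held 18.1% of the variance.

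**Figure D1:**
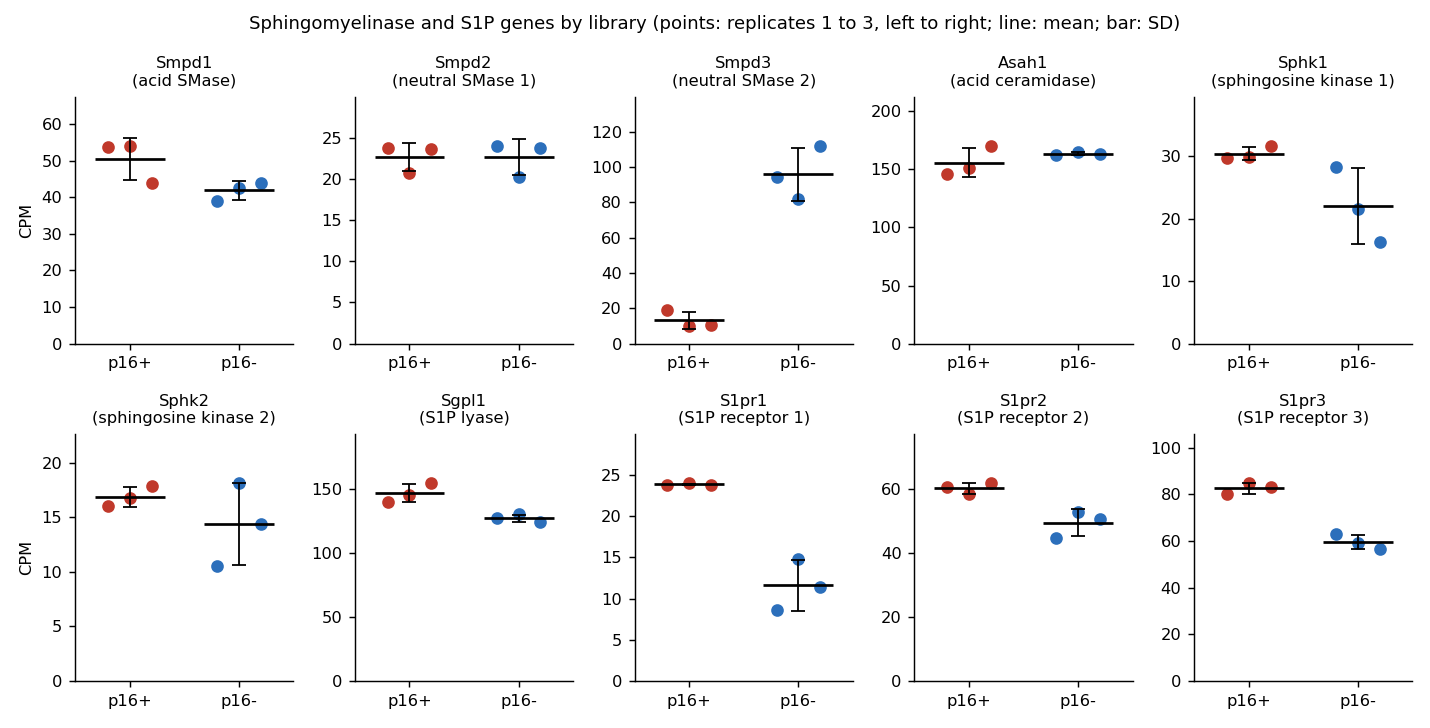
CPM (vertical axis, from 0) of each of the 10 genes in the 3 p16+ libraries (red, left) and the 3 p16- libraries (blue, right). Points are replicates 1 to 3 from left to right, lines the mean and bars the SD. Smpd3 lies at 9.69 to 18.7 CPM in p16+ and 81.9 to 112 CPM in p16-, and S1pr1 lies near 24 CPM in each p16+ library.

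The sphingomyelinase genes differed among themselves. Smpd3 (ENSMUSG00000031906.9, chromosome 8, 106252548 to 106337988, minus strand, GRCm38) encodes the neutral sphingomyelinase of the inner plasma membrane and Golgi, which is highly expressed in brain and needed in mice for normal bone and cartilage. Its level was 18.7, 9.69 and 10.8 CPM in p16+ libraries, against 94.1, 81.9 and 111.9 CPM in p16- libraries. The highest p16+ value, in replicate 1, was far below the lowest p16- value. On the log2 scale the fold change was -2.88 (SE 0.26). Leaving out each library in turn gave log2 fold changes of -3.23 to -2.70. Within groups Smpd3 varied most in p16+, with a coefficient of variation of 37.8% in p16+ and 15.7% in p16-. The Smpd3 locus is overlapped by Prmt7 on the opposite strand over 4.72% of its exonic length, and the library kit does not mark strand.

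Smpd1 (ENSMUSG00000037049.9, chromosome 7, 105554360 to 105558389, plus strand) encodes the lysosomal and secreted acid sphingomyelinase that is deficient in Niemann-Pick disease types A and B. It had 53.8, 54.1 and 44.0 CPM in p16+ libraries, against 38.99, 42.65 and 44.05 CPM in p16- libraries. The groups overlapped through p16+ replicate 3, which was just below p16- replicate 3. The log2 fold change of 0.27 (SE 0.10) did not pass. Smpd1 passed without p16+ replicate 3, without the filter on low counts and with the replicate number as a block.

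Smpd2 (ENSMUSG00000019822.12, chromosome 10, 41485642 to 41490369, minus strand), which encodes another neutral sphingomyelinase, was the least changed of the 10 genes. It had 23.8, 20.7 and 23.6 CPM in p16+ libraries, against 24.0, 20.2 and 23.8 CPM in p16- libraries. Its log2 fold change was 0.00, with a 95% interval of -0.24 to 0.24. Of its exonic length, 20.26% is overlapped by Mical1 on the opposite strand.

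Counted per exonic length, as CPM per kilobase (RPKM), the summed level of the 3 sphingomyelinase genes was 22.8 ± 2.26 RPKM in p16+ and 36.0 ± 3.57 RPKM in p16- (SD, n = 3 each). Smpd3 made up 14.3%, 8.17% and 10.0% of that sum in p16+ libraries, against 51.3%, 47.5% and 53.6% in p16- libraries. Smpd1 made up 66.7% ± 4.08 of it in p16+ and 35.1% ± 3.22 in p16-. By this measure, which uses the exonic length of all annotated transcripts, Smpd1 was the leading sphingomyelinase transcript of p16+ libraries, and Smpd3 that of p16- libraries.

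Of the genes that act on ceramide and on S1P inside the cell, Sphk1 was called and Asah1, Sphk2 and Sgpl1 were not. Asah1 (ENSMUSG00000031591.14, chromosome 8, 41340197 to 41374773, minus strand) encodes acid ceramidase, the lysosomal enzyme that releases sphingosine. It was the most abundant of the 10 genes per length in both groups, at 46.0 ± 3.75 RPKM in p16+ and 48.2 ± 0.41 RPKM in p16-. Its level was 146, 151 and 170 CPM in p16+ libraries, against 162, 165 and 163 CPM in p16- libraries. Replicate 3 of p16+ lay above all p16- libraries, and the other p16+ libraries lay below them. Its log2 fold change was -0.07 (SE 0.08), with a 95% interval of -0.24 to 0.10.

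Sphk1 (ENSMUSG00000061878.15, chromosome 11, 116530925 to 116536674, plus strand) encodes the mainly cytosolic sphingosine kinase that growth factors and cytokines activate. It had 29.7, 29.95 and 31.7 CPM in p16+ libraries, against 28.3, 21.6 and 16.2 CPM in p16- libraries. All p16+ values were above all p16- values, and the nearest p16- library, replicate 1, was close to the p16+ ones. The log2 fold change was 0.47 (SE 0.15), or 1.38-fold higher. This call was the least stable of the 5. It was lost under 7 of the 13 other settings, among them the omission of p16+ replicate 1, 2 or 3 or of p16- replicate 2 or 3, with log2 fold changes of 0.29 to 0.69 over all settings.

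Sphk2 (ENSMUSG00000057342.15, chromosome 7, 45709467 to 45718002, minus strand) encodes the kinase found also in the nucleus and mitochondria. It had 16.1, 16.7 and 17.9 CPM in p16+ libraries, against 10.55, 18.1 and 14.4 CPM in p16- libraries. The groups overlapped, since p16- replicate 2 was the highest of all. Its log2 fold change was 0.23 (SE 0.16, 95% interval -0.11 to 0.58), and 21.93% of the exonic length is overlapped by Dbp and Rpl18 on the opposite strand. Both kinase genes varied more in p16- than in p16+. The coefficient of variation of Sphk1 was 3.5% in p16+ and 27.5% in p16-, and that of Sphk2 5.4% in p16+ and 26.3% in p16-.

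Sgpl1 (ENSMUSG00000020097.14, chromosome 10, 61098642 to 61147703, minus strand) encodes S1P lyase. It had 140, 145 and 154 CPM in p16+ libraries, against 127, 130 and 124 CPM in p16- libraries. The groups did not overlap, yet the log2 fold change of 0.21 (SE 0.07) was small and did not pass. It passed with DESeq2 and with the replicate block.

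The 3 receptor genes were all higher in p16+. S1pr1 (ENSMUSG00000045092.8, chromosome 3, 115710433 to 115715072, minus strand) encodes the receptor that couples to Gi proteins and is best known for the exit of lymphocytes from lymphoid organs and for stable blood vessels. It had 23.8, 24.0 and 23.8 CPM in p16+ libraries, against 8.56, 14.8 and 11.4 CPM in p16- libraries. The p16+ libraries differed from each other by less than 1 CPM, and each was above every p16- library. Its log2 fold change was 1.04 (SE 0.16), or 2.06-fold higher, and 0.87 to 1.26 with any 1 library left out.

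S1pr2 (ENSMUSG00000043895.6, chromosome 9, 20962361 to 20976781, minus strand) encodes the receptor that couples to G12 and G13 proteins. It had 60.6, 58.3 and 61.7 CPM in p16+ libraries, against 44.7, 52.9 and 50.6 CPM in p16- libraries, with no overlap. The log2 fold change was 0.29 (SE 0.08), and its call was lost without p16+ replicate 1, 2 or 3, without p16- replicate 1 or 3 and with library sizes alone. S1pr3 (ENSMUSG00000067586.4, chromosome 13, 51408639 to 51422797, plus strand) encodes a receptor of several G proteins that is known in vascular smooth muscle and heart. It had 80.0, 84.7 and 83.25 CPM in p16+ libraries, against 62.9, 59.1 and 56.6 CPM in p16- libraries. The groups lay apart by more than their own spread, and the log2 fold change was 0.47 (SE 0.08), or 1.39-fold higher.

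Per exonic length, S1pr3 was the leading receptor transcript in both groups, at 18.5 ± 0.54 RPKM in p16+ and 13.3 ± 0.71 RPKM in p16-. The length used covers all annotated transcripts: 7971 bases over 4 transcripts for S1pr2, 4463 over 1 for S1pr3 and 3046 over 1 for S1pr1. Gene-level counts do not say which S1pr2 transcripts were expressed, so the receptor order, sums and shares depend on this choice of length. The summed receptor level was 33.9 ± 0.48 RPKM in p16+ and 23.3 ± 1.22 RPKM in p16-. S1pr1 made up 23.1% ± 0.30 of the sum in p16+ and 16.2% ± 3.59 in p16-, and S1pr2 22.3% ± 0.77 in p16+ and 26.5% ± 1.48 in p16-. The remaining receptor genes were near absence: S1pr5 had 0 counts in all 6 libraries, and S1pr4 had 0 in each p16+ library and at most 3 in any p16- library.

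**Figure D2:**
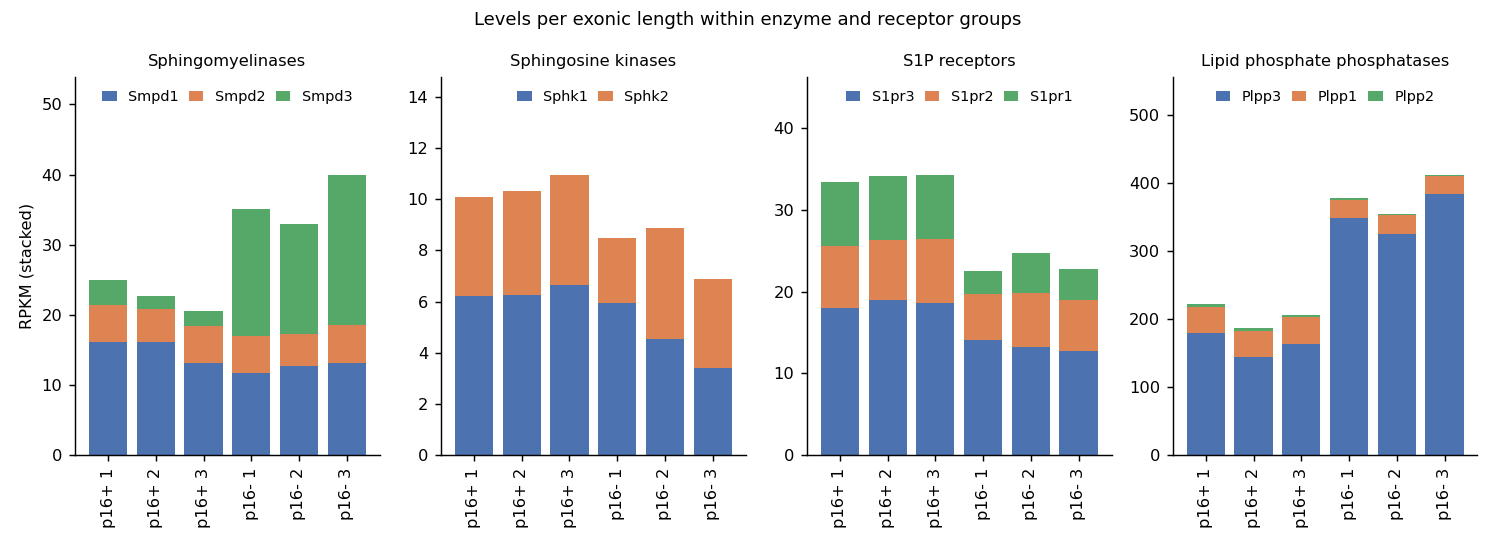
Stacked RPKM (vertical axis, from 0) in each library, with p16+ libraries left of p16- libraries, for the sphingomyelinase, sphingosine kinase, S1P receptor and lipid phosphate phosphatase genes. The Smpd3 segment is 1.85 to 3.58 RPKM in p16+ and 15.65 to 21.4 RPKM in p16-, while the receptor stack reaches 33.3 to 34.2 RPKM in p16+ and 22.5 to 24.7 RPKM in p16-.

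The windows of 250 bases before the annotated RefSeq starts of Sphk1, S1pr2 and S1pr3, the called genes with a window in the reference table, are shown. Whether these genes share regulation was not tested. Of the 10 genes 7 had at least 1 window. Smpd3, Asah1 and S1pr1 had none. Windows are from GRCm38.p6, written in the direction of the gene: chr11:116530850-116531099 (plus strand) for the first of the 5 Sphk1 windows, chr9:20976794-20977043 (minus strand) for S1pr2 and chr13:51408368-51408617 (plus strand) for S1pr3. Capitals mark matches on either strand to the GC box GGGCGG, the TATA box TATAAA, the E-box CACGTG or the AP-1 site TGANTCA.

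Sphk1: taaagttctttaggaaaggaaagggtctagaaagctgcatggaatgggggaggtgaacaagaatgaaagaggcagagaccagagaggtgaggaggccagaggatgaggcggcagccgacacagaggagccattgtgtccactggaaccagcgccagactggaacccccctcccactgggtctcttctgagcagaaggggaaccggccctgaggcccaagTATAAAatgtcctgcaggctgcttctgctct
S1pr2: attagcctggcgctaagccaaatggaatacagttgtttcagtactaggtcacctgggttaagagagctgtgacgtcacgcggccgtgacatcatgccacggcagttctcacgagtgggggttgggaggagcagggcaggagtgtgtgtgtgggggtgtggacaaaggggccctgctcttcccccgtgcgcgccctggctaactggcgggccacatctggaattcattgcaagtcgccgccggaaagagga
S1pr3: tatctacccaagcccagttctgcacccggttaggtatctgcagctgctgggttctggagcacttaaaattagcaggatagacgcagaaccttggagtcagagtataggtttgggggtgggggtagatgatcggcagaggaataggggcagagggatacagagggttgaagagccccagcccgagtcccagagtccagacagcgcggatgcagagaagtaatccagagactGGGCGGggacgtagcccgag

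These 3 windows held no motif in common, and no matches overlapped. The Sphk1 window had 1 TATA box, which 12.4% of all 32851 windows in the table hold. The S1pr3 window had 1 GC box, which 32.7% hold, and the S1pr2 window had none of the 4 motifs. An E-box is held by 6.02% and an AP-1 site by 6.75% of all windows. These windows had 4, 14 and 9 CpG dinucleotides for Sphk1, S1pr2 and S1pr3, where the median of all windows was 6. The most CpG-rich window of the group was that of Sgpl1, with 31. Of the 4 other Sphk1 windows, which overlap in pairs, 2 shared the same 1 AP-1 site and 2 shared the same 1 E-box. Gene-level counts do not say which of the Sphk1 starts was used, and a match to a motif is not a site of binding.

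Ranked per length, Asah1, Sgpl1 and S1pr2 held the same place in both groups and the other 7 genes did not. These ranks depend on the length of all annotated transcripts of a gene, which can exceed that of the transcripts expressed. In p16+ it ran from Asah1 through Sgpl1 (23.9 ± 1.17 RPKM), S1pr3, Smpd1 (15.2 ± 1.72), S1pr1 (7.83 ± 0.036), S1pr2 (7.55 ± 0.22), Sphk1 (6.38 ± 0.22), Smpd2 (5.08 ± 0.39) and Sphk2 (4.06 ± 0.22) to Smpd3 (2.50 ± 0.94). In p16- it ran from Asah1 through Sgpl1 (20.7 ± 0.50), Smpd3 (18.3 ± 2.88), S1pr3, Smpd1 (12.6 ± 0.78), S1pr2 (6.20 ± 0.53), Smpd2 (5.07 ± 0.48), Sphk1 (4.62 ± 1.27) and S1pr1 (3.81 ± 1.03) to Sphk2 (3.45 ± 0.91). In p16+ no neighbours in that order overlapped over the 3 libraries, the closest being S1pr1 at 7.81 to 7.88 RPKM and S1pr2 at 7.31 to 7.74 RPKM. In p16- the neighbours Sgpl1 and Smpd3, S1pr3 and Smpd1, Smpd2 and Sphk1, Sphk1 and S1pr1, and S1pr1 and Sphk2 overlapped.

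**Figure D3:**
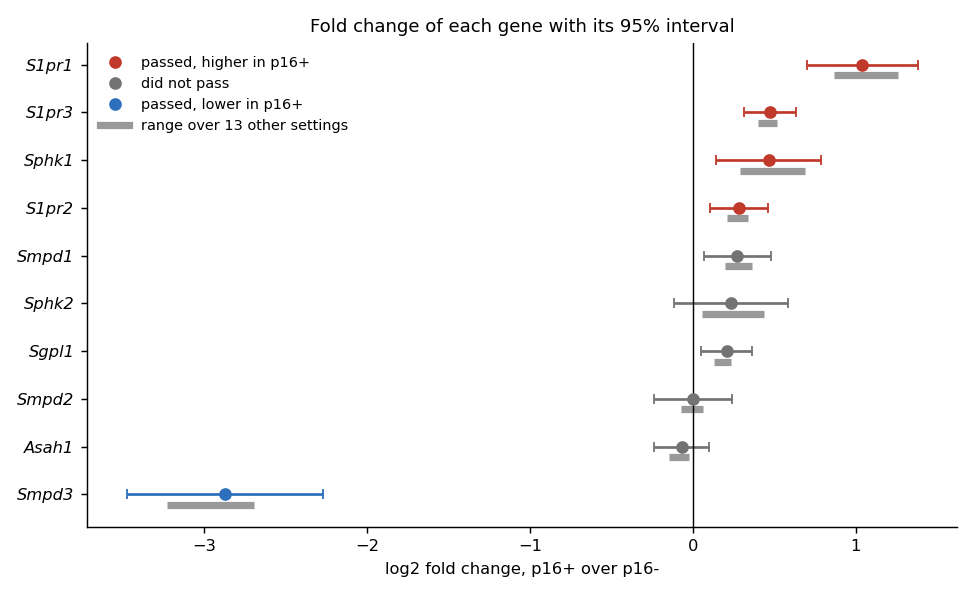
Log2 fold change, p16+ over p16- (horizontal axis), of each of the 10 genes with its 95% interval from the fit; grey bars span the values under 13 other settings. Red genes passed as higher, blue as lower and grey did not pass, and each of the 5 called genes keeps its sign in every setting shown.

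Markers of other cell types moved with the groups. Over all genes tested, 8.69% were called higher and 8.04% lower. S1pr1 is rich in endothelium, and 2 of 8 endothelial markers rose and 1 fell. Their median log2 fold change was 1.00, beside 1.04 for S1pr1, with Tek at -1.77 and Kdr at -0.16. The 8 endothelial markers summed to 66.8 to 93.9 CPM in p16+ and 174 to 205 CPM in p16-, mostly from Tek. Without Tek, an omission chosen after its values were seen, the sum was 23.9 to 36.1 CPM in p16+ and 20.9 to 24.5 CPM in p16-. Pecam1 was 7.07, 5.01 and 8.12 CPM in p16+ libraries, against 2.56, 3.35 and 4.11 CPM in p16- libraries. The 6 lymphocyte markers summed to 0.358 to 1.14 CPM in p16+ and 0.0806 to 0.1765 CPM in p16-, and only 1 of them had enough counts to be tested, without passing. Of 8 pericyte and smooth muscle markers 5 rose and 0 fell, with sums of 1787 to 1813 CPM in p16+ and 1199 to 1505 CPM in p16-. Of 6 glial markers, which stand beside Smpd3 as a gene of nervous tissue, 5 fell and 0 rose, with sums of 43.1 to 54.6 CPM in p16+ and 81.6 to 146 CPM in p16-. Of 10 macrophage and leukocyte markers 4 rose and 0 fell, with sums of 256 to 297 CPM in p16+ and 185 to 205 CPM in p16-. Cartilage markers also stand beside Smpd3, as a gene needed for cartilage, yet of 5 such markers 2 rose and 0 fell, unlike Smpd3. They summed to 131 to 194.5 CPM in p16+ and 99.9 to 147 CPM in p16-. Of 6 satellite cell and muscle fibre markers 1 rose and 0 fell, with sums of 18.4 to 29.3 CPM in p16+ and 15.2 to 17.45 CPM in p16-. Of 4 epithelial markers 1 could be tested and did not pass, and they summed to 0.0876 to 0.354 CPM in p16+ and 0.605 to 1.5 CPM in p16-. Cd3d, Nkg7 and Krt5 had at most 3 counts in any library. No marker was at 0 counts in all 6 libraries. The part of these cells in the levels of the 10 genes was not tested, and in bulk libraries fewer cells of a type and less RNA per cell cannot be told apart.

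Beyond the 10 genes, the steps around S1P outside the cell held the largest differences of the sphingolipid lists, which were written from the pathway and with earlier results of these libraries known. Of 11 genes of S1P phosphatases, transport and other receptors, 7 were tested, 3 rose, 1 fell and 3 did not pass. Over all genes tested, 8.69% were called higher and 8.04% lower. Spns2, which encodes the S1P exporter, had 22.7, 19.2 and 23.3 CPM in p16+ libraries, against 10.7, 7.92 and 12.8 CPM in p16- libraries (log2 fold change 1.05, SE 0.16, edgeR adjusted p = 0.000205). Its groups did not overlap, as those of S1pr1 did not. Plpp3 encodes a lipid phosphate phosphatase of the cell surface that removes the phosphate of S1P and of lysophosphatidic acid. It had 566, 457 and 516 CPM in p16+ libraries, against 1101, 1026 and 1213 CPM in p16- libraries (log2 fold change -1.12, SE 0.09, edgeR adjusted p = 7.65e-07). Its relatives moved the other way: Plpp1 had 68.5 ± 1.43 CPM in p16+ and 46.7 ± 1.42 CPM in p16- (log2 fold change 0.55, edgeR adjusted p = 8.3e-05), with 25.83% of its exonic length overlapped by Mtrex on the opposite strand. Plpp2 had 5.89 ± 0.42 CPM in p16+ and 3.04 ± 0.70 CPM in p16- (log2 fold change 0.95, edgeR adjusted p = 0.00929), a call lost without p16- replicate 3 (adjusted p = 0.0516). Per length, Plpp3 still made up 79.1% ± 1.64 of the 3 phosphatases in p16+ and 92.5% ± 0.82 in p16-, and their sum was 205 ± 17.7 RPKM in p16+ and 381 ± 28.8 RPKM in p16-. The intracellular S1P phosphatase gene Sgpp1 had 95.1 ± 3.11 CPM in p16+ and 99.4 ± 4.27 CPM in p16- (log2 fold change -0.06, SE 0.07) and did not pass.

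**Figure D4:**
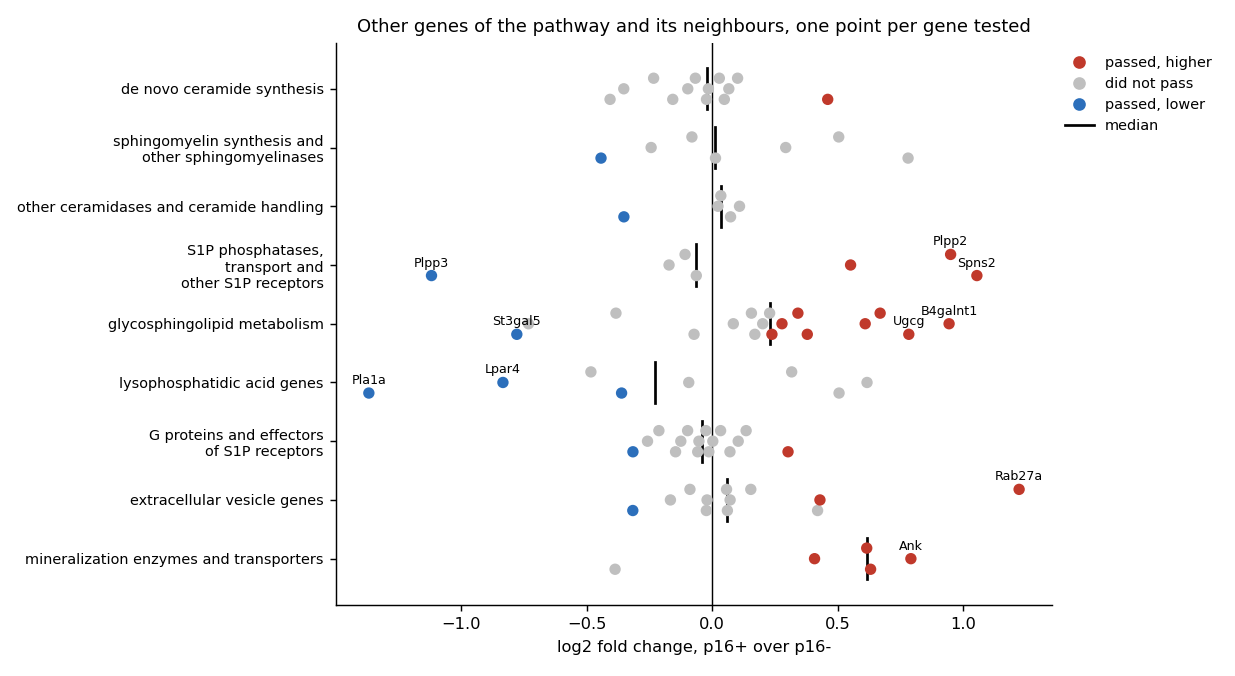
Log2 fold change, p16+ over p16- (horizontal axis), of each tested gene in 9 lists of the pathway and its neighbours; red passed as higher, blue as lower, grey did not pass, and black lines are list medians. The largest values are those of Pla1a at -1.37, Plpp3 at -1.12, Spns2 at 1.05 and Rab27a at 1.22.

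The calls in the lists of ceramide and sphingomyelin genes stand beside 16.7% of all genes tested called in either direction. Of 17 genes of de novo ceramide synthesis, 13 were tested, and 1 rose, 0 fell and 12 did not pass, with a median log2 fold change of -0.02. The 1 gene was Ormdl3, an inhibitor of serine palmitoyltransferase, with 73.2 ± 4.39 CPM in p16+ and 53.2 ± 3.28 CPM in p16- (log2 fold change 0.46, edgeR adjusted p = 0.000808). Of 8 genes of sphingomyelin synthesis and of other sphingomyelinases, 7 were tested, 0 rose and 1 fell, with a median of 0.01. It was Smpdl3a, a secreted relative of acid sphingomyelinase, with 68.9 ± 3.35 CPM in p16+ and 93.6 ± 7.25 CPM in p16- (log2 fold change -0.44, edgeR adjusted p = 0.00101). The sphingomyelin synthase gene Sgms2 had 47.4 ± 5.22 CPM in p16+ and 38.7 ± 2.8 CPM in p16- without overlap (log2 fold change 0.29, edgeR adjusted p = 0.0537). It did not pass, but was called higher under 6 of the 13 other settings. Of 7 other ceramidase and ceramide handling genes, 5 were tested, 0 rose and 1 fell, with a median of 0.03. It was the ceramide kinase gene Cerk, with 36.8 ± 4.73 CPM in p16+ and 47.0 ± 4.11 CPM in p16- (log2 fold change -0.35, edgeR adjusted p = 0.0285), a call lost without p16+ replicate 1 or 2 or p16- replicate 3.

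Glycosphingolipid genes, which use ceramide to build glucosylceramide and gangliosides or break these down, rose more often than they fell. Of 17, all tested, 8 rose, 1 fell and 8 did not pass, with a median log2 fold change of 0.23. Over all genes tested, 8.69% were called higher and 8.04% lower. This list too was written with earlier results of these libraries known, so its count is a description. Among the synthetic enzymes, Ugcg, which makes glucosylceramide, had 387 ± 67.1 CPM in p16+ and 225 ± 30.5 CPM in p16- (log2 fold change 0.78, edgeR adjusted p = 0.000211). The lactosylceramide synthase genes B4galt5 and B4galt6 rose by 0.67 and 0.61 on the log2 scale (edgeR adjusted p = 0.000164 and 0.00493). B4galnt1, which makes complex gangliosides, rose by 0.94 (edgeR adjusted p = 0.000115), with 20.7% of its exonic length overlapped by Slc26a10. St3gal5, which makes the first ganglioside GM3, fell by 0.78 (edgeR adjusted p = 0.0106), with 7.11 ± 1.88 CPM in p16+ and 12.2 ± 2.09 CPM in p16-. This call was lost without p16+ replicate 1 or 2 or p16- replicate 3. Among the lysosomal genes, Glb1, Hexa and Gm2a rose by 0.38, 0.34 and 0.24 (edgeR adjusted p = 0.00316, 0.00644 and 0.0338), and 12.78% of the exonic length of Hexa is overlapped by another gene. The call of Gm2a was lost under 5 of the 6 omissions of a library, with library sizes alone and without the filter on low counts. Over the 5 sphingolipid lists together, 12 of 49 genes tested rose and 4 fell, with a median of 0.05.

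Downstream of the receptors, of 16 genes of G proteins and effectors, all tested, 1 rose, 1 fell and 14 did not pass, with a median log2 fold change of -0.04. Over all genes tested, 16.7% were called in either direction. Gna12, a partner of S1pr2, had 87.6 ± 5.22 CPM in p16+ and 71.0 ± 1.30 CPM in p16- (log2 fold change 0.30, edgeR adjusted p = 0.0104), with 13.35% of its exonic length overlapped by Amz1. This call was lost without p16+ replicate 2 (adjusted p = 0.0791). Rock2, which encodes a kinase of actomyosin contraction, had 135 ± 3.41 CPM in p16+ and 168 ± 12.2 CPM in p16- (log2 fold change -0.32, edgeR adjusted p = 0.00974).

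Lysophosphatidic acid, a lipid mediator related to S1P, has its own enzymes and receptors. Of 9 genes in this list, which also holds Pla1a of another lysophospholipid, 8 were tested, 0 rose, 3 fell and 5 did not pass. Their median log2 fold change was -0.23. Over all genes tested, 8.69% were called higher and 8.04% lower. Pla1a, a phospholipase that makes lysophosphatidylserine and was listed here as a lysophospholipid enzyme, had 196, 157 and 150 CPM in p16+ libraries, against 485, 393 and 421 CPM in p16- libraries (log2 fold change -1.37, SE 0.11, edgeR adjusted p = 3.82e-07). Enpp2, which encodes autotaxin, had 193 ± 6.70 CPM in p16+ and 248 ± 20.2 CPM in p16- (log2 fold change -0.36, edgeR adjusted p = 0.00489). The receptor gene Lpar4 had 13.9 ± 1.71 CPM in p16+ and 24.8 ± 4.95 CPM in p16- (log2 fold change -0.83, edgeR adjusted p = 0.000931), while the most abundant receptor gene, Lpar1, had 143 ± 1.88 CPM in p16+ and 153 ± 14.8 CPM in p16- and did not pass.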

How the data were processed

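RNA-seq of 6 libraries, 3 p16+ and 3 p16-, was analysed from the deposited counts. These are whole-number counts of fragments per gene that the authors made with featureCounts 1.6.0 on exons of GENCODE vM21, with no option set for strand or for shared and multiply mapped fragments, per the file headers. STAR 2.7.3a, bcl2fastq and GRCm38.p6 are named in the submitters' processing notes. At these settings a fragment in more than 1 gene is left uncounted, so overlap is given where it exceeded 10% of a named gene's exonic length, and for Smpd3. All 55536 gene ranges matched the vM21 annotation.

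Genes were filtered with filterByExpr (15903 kept, 99.918% to 99.932% of counts), scaled by TMM and tested with edgeR 4.0.16 in R 4.3.3 (quasi-likelihood F test, robust fit, group alone in the model, Benjamini-Hochberg adjustment over all genes tested, threshold 0.05). The common biological coefficient of variation was 0.158. SE and 95% intervals come from the same fit. CPM and RPKM use TMM-scaled totals, and RPKM divides by the exonic length of all transcripts of a gene. Values are means ± SD over 3 libraries. On simulated counts the fit recovered 56% of 1.5-fold, 64% of 2-fold, 84% of 3-fold and 82% of 4-fold changes, with 10 false calls among 153. A gene that did not pass is therefore not shown to be unchanged. Replicates differed by more than counting noise. Same-numbered libraries varied little together (correlations of their deviations 0.028, 0.082 and -0.005). The correlations of differently numbered libraries were -0.069 to 0.039. With 3 libraries per group these values cannot decide whether the numbers pair the samples.

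The members and the lists were chosen with earlier results of these data known. Named genes were the 10 members, Cdkn2a, the genes of the sort gate, every listed gene past the threshold, or the most abundant gene of a list with none. Lpar1, Sgpp1, Sgms2, Alpl and Kdr were named outside this rule after their values were seen. Values of some listed genes are not reported here. Some listed genes had too few counts to be tested. Hgs has 2 overlapping gene IDs, both with 0 counts. Alternatives were upper-quartile and RLE factors, no filter, a filter at CPM 1 in 3 libraries, DESeq2 1.42.0, the replicate block, each library left out and, chosen after seeing the data, library sizes alone. No motif, marker or list was given a set test.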

Additional observations from a re-analysis of the deposited data

How the results depend on the processing

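Of 13 other settings for each of the 10 genes, none turned a direction of a called gene, 112 of the 130 values kept their side of the threshold, 13 lost the call and 5 gained it. Smpd3, S1pr1 and S1pr3 were called under all 13. With 1 library left out, 3 to 4 of the 10 genes were called (2 to 3 higher), and the lost calls were those of Sphk1 and S1pr2. Library sizes alone, which shift all genes by a median of -0.075 on the log2 scale and leave 36.0% of all calls higher in place of 52.0%, gave 3 calls, 2 of them higher. With the replicate block, 7 of the 10 genes and 3114 of all genes were called, in place of 5 and 2660. The labels do not say whether the replicate numbers pair the samples. DESeq2 called 6 of the 10 and 2998 genes in all. Counts over all genes ranged from 1887 to 2567 with 1 library left out, and the lists together had 16 to 21 genes higher and 6 to 13 lower over all settings, in place of 19 and 9. The causes were not tested. At this depth levels under 0.0737 to 0.0876 CPM, or 3 counts in a library, cannot be told from absence.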

Other observations

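Neutral sphingomyelinase 2, the product of Smpd3, is known for the budding of exosomes through ceramide and for mineralization of bone, and genes of both processes were listed. Of 13 extracellular vesicle genes, 12 were tested, 2 rose, 1 fell and 9 did not pass, with a median log2 fold change of 0.06. Over all genes tested, 8.69% were called higher and 8.04% lower. Rab27a, a GTPase of exosome secretion, had 3.88, 5.50 and 6.25 CPM in p16+ libraries, against 2.48, 2.32 and 1.88 CPM in p16- libraries (log2 fold change 1.22, SE 0.26, edgeR adjusted p = 0.00378). The tetraspanin gene Cd63, of late endosomes and vesicles, had 601 ± 15.0 CPM in p16+ and 446.5 ± 31.5 CPM in p16- (log2 fold change 0.43, edgeR adjusted p = 0.00108). Stam, of the endosomal sorting machinery, had 36.4 ± 4.38 CPM in p16+ and 45.3 ± 2.10 CPM in p16- (log2 fold change -0.32, edgeR adjusted p = 0.0362), a call lost without p16+ replicate 2 or 3 or p16- replicate 2 or 3.

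Of 6 genes of mineralization, 5 were tested, 4 rose, 0 fell and 1 did not pass, with a median log2 fold change of 0.62. Over all genes tested, 8.69% were called higher and 8.04% lower. The 1 that did not pass, Alpl, went the other way. It had 6.65 ± 0.45 CPM in p16+ and 8.70 ± 1.17 CPM in p16- (log2 fold change -0.39, edgeR adjusted p = 0.148). Ank, which encodes an exporter of pyrophosphate and ATP, had 75.3, 77.3 and 77.3 CPM in p16+ libraries, against 42.5, 48.8 and 41.5 CPM in p16- libraries (log2 fold change 0.79, SE 0.08, edgeR adjusted p = 5.77e-06). Enpp1, which makes pyrophosphate, an inhibitor of mineralization, had 39.5 ± 4.11 CPM in p16+ and 25.8 ± 1.58 CPM in p16- (log2 fold change 0.62, edgeR adjusted p = 0.000448). The phosphate importer genes Slc20a1 and Slc20a2 rose by 0.63 and 0.41 on the log2 scale (edgeR adjusted p = 0.000196 and 0.0322). The call of Slc20a2 was lost without p16+ replicate 1 or 3, without p16- replicate 1 or 3 and with library sizes alone, and 13.12% of the exonic length of Slc20a1 is overlapped by other genes.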
